A study of Homo sapiens with 6 samples.

Results

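Integrins and focal adhesion genes are described here in the bulk RNA-seq dataset of 1CT and 1CT-A cells. The set holds 46 genes that are chosen by name, which are 20 integrin subunit genes (12 α and 8 β) and 26 genes of the proteins that hold integrins to the actin skeleton or signal from them. Each of the 46 symbols is entered once among the 24462 symbols of the count files. At least 1 read is counted on 45 of them in some library, and 41 have enough counts to be tested, out of 12514 genes tested in all. The 5 that could not be tested are ITGA9, ITGA11, ITGB4, ITGB6 and ITGB7.

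1CT is an immortalized human colon epithelial cell line that carries hTERT, and 1CT-A is the version of it in which wild type APC is depleted, which the labels call a knockdown of APC. Each line has 3 libraries. All cells are untreated and grow in the same medium, with epidermal growth factor, hydrocortisone, insulin, transferrin, sodium selenite and 2% FBS. 1CT-A is 1 derived line, so APC depletion and any other difference between the 2 lines cannot be told apart, and nothing in the labels says that the libraries of a line come from separate cultures. P values then measure the spread between libraries, which may be technical. The libraries are QuantSeq libraries, whose reads lie at the 3′ end of transcripts. They hold 7788679 to 8452258 counts in 1CT and 11158108 to 12602988 counts in 1CT-A. Levels are given as CPM, the counts scaled by the total count of a library. A level of 3 counts is the smallest that is read as visible, which is 0.355 to 0.385 CPM in 1CT, or 0.238 to 0.269 CPM for 1CT-A, and covers counting error only. APC, the targeted gene, is at 49.3, 43.8 and 46.6 CPM in 1CT and 31.5, 30.0 and 34.4 CPM in 1CT-A, a log2 fold change of -0.58 ± 0.09 (SE of the fit, adjusted p = 0.000176 by edgeR).

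Integrins are receptors made of an α and a β subunit. They bind the matrix outside the cell (collagens, laminins, or proteins with the RGD peptide such as fibronectin and vitronectin) and are linked inside to actin. Talin and kindlin bind the tail of the β subunit, vinculin, α-actinin, filamin and tensin connect to actin filaments, and focal adhesion kinase and SRC phosphorylate the scaffolds paxillin and p130Cas. In colon epithelium these contacts fix cells to the basement membrane, and their parts are shared between related genes that are used in different tissues.

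The markers of cell types go little with the epithelial label of the cells. Of 8 epithelial markers, 5 have too few counts to be tested. EPCAM has no count in any library, CDH1 has at most 4, ELF3 at most 2, CLDN4 at most 7 and KRT8 at most 14. The 8 together sum to 41.2 to 45.5 CPM in 1CT, against 23.6 to 30.9 CPM for 1CT-A, mostly from CLDN7 and KRT18. KRT18, KRT19 and CLDN7, the 3 tested, are called lower in 1CT-A. KRT19 has enough counts to be tested through 1CT alone, the line in which it is high. Its counts there are 20, 27 and 34, and each 1CT-A library has 0, so the size of its fall is not known. The lines overlap for CLDN7. All 8 fibroblast markers are tested, and they sum to 4698 to 5733 CPM in 1CT, against 4363 to 4677 CPM for 1CT-A, with 4 lower and 2 higher. COL3A1, a fibrillar collagen, rises 5.16-fold, and PDGFRB and THY1 fall 1.97- and 1.87-fold. The 6 leukocyte markers sum to 13.2 to 16.0 CPM in 1CT, against 9.76 to 11.1 CPM for 1CT-A, mostly from CD68, and the 5 endothelial markers to 3.59 to 6.52 CPM and 1.08 to 2.55 CPM, mostly from TEK, with CDH5 at 0. The 3 platelet markers sum to at most 3.55 CPM, mostly from PF4. The part of these cell type markers in the results on integrins and adhesion genes was not tested.

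In 1CT-A, more of these genes are lower than higher. By the quasi-likelihood test of edgeR, with an adjusted p below 0.05, 23 of the 41 tested genes are lower in 1CT-A (56.1%) and 6 are higher (14.6%), where 26% of all tested genes are lower and 25% are higher. In either direction 29 of the 41 are called (70.7%), against 51% of all tested genes. The 46 genes were chosen with earlier results of these data known, so these shares describe the set and do not test it. Of the 15 tested integrin subunits 7 are lower and 3 higher, and of the 26 cytoplasmic genes 16 are lower and 3 higher. The 6 higher genes are ITGB3, ITGA4, ITGA1, FERMT1, TLN2 and CAV1. The largest falls at 10 CPM or more are those of LIMS2, NEDD9 and TNS1. The median log2 fold change is -0.31 over the 41 genes and -0.0067 over all tested genes. With the fold change of at least 2 and the unadjusted p under 0.01 that the study's methods use, 7 genes pass (17.1%), against 13.4% of all tested genes. ITGB3 is the higher one (3.8% of all tested genes pass as higher and 9.6% as lower), and ITGA7, ITGB2, ITGB8, LIMS2, NEDD9 and TNS1 are lower. For 31 of the 41 genes the libraries of 1CT and 1CT-A are apart, without overlap (75.6%, against 59.7% of all tested genes). For each of these, the exact permutation test (two-sided, 3 against 3) gives p = 0.1, the smallest p that the design allows. ITGB2 and ITGB8 met the limit on low counts through 1CT alone, the line in which they are high. When 10 counts are asked of every library, 38 of the genes are tested, with 22 lower and 6 higher, and 5 pass the fold change of 2, so the 7 rest in part on ITGB2 and ITGB8. Without replicate 2 of both lines, an alternative added after the data were seen, 15 are lower and 6 higher, and the 8 lost are CAV2, FLNA, ITGA5, LIMS1, PTK2, TLN1, TNS3 and VCL.

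**Figure D1:**
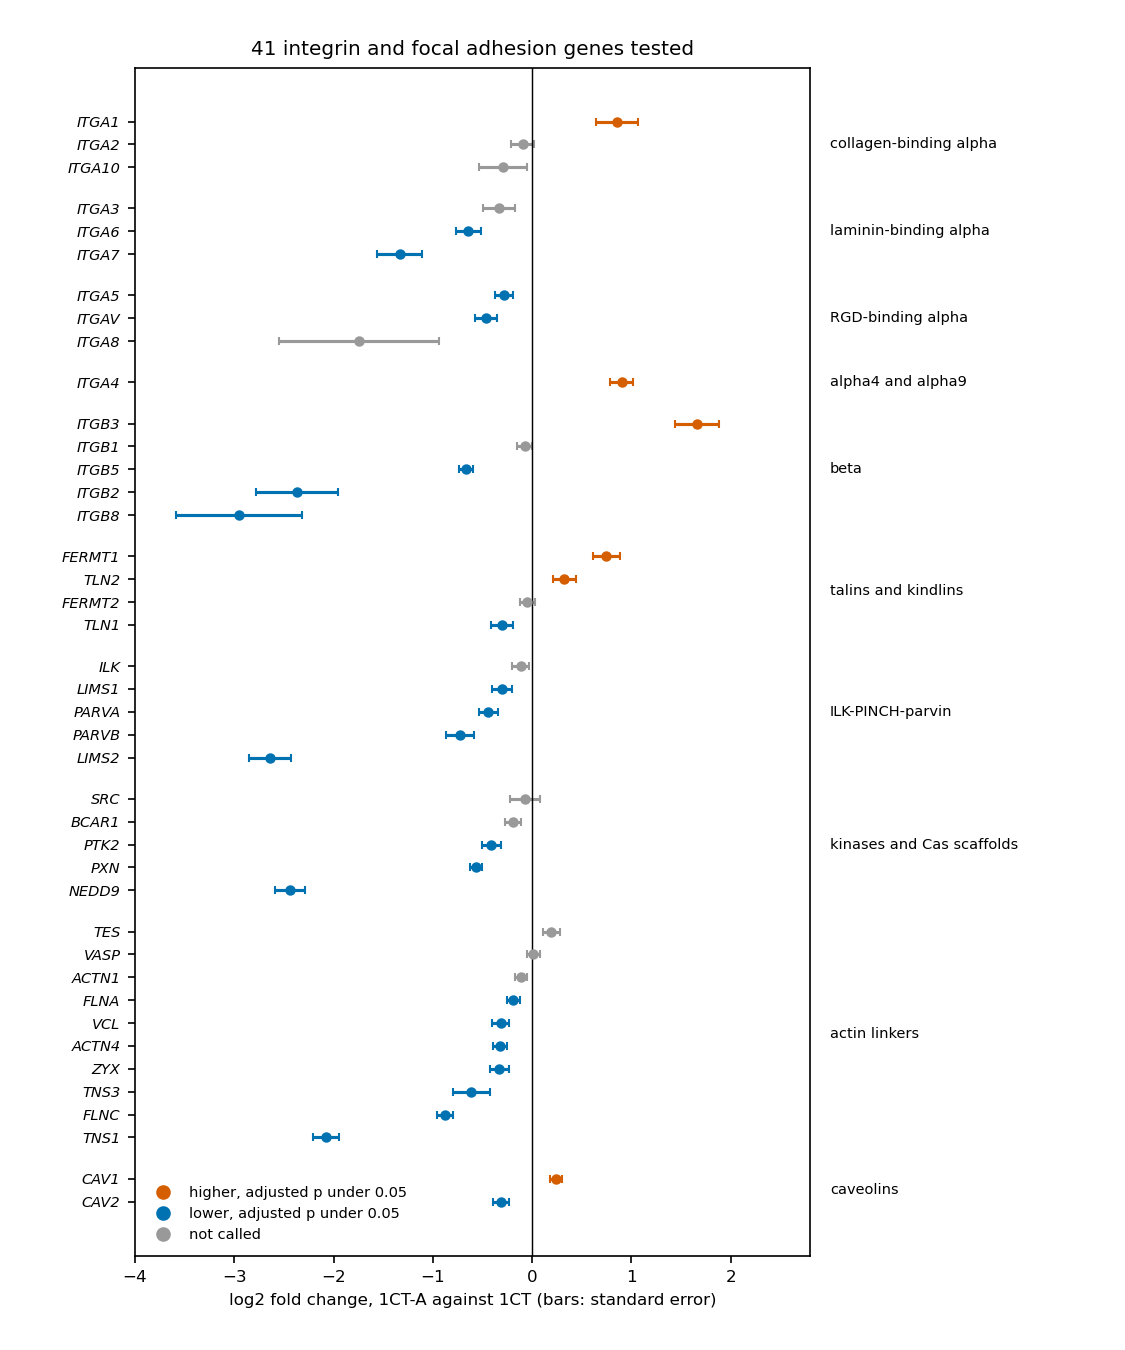
Log2 fold change between the lines (1CT-A over 1CT) for the 41 tested genes, grouped by the role of the protein, with bars for the standard error of edgeR's fit and colour for the call at an adjusted p under 0.05. The points left of 0 are lower in 1CT-A (23 called), and the 6 called higher run from 0.24 for CAV1 to 1.66 for ITGB3.

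Among the β subunits, ITGB3 rises, ITGB5 falls and ITGB1 does not pass the test. ITGB1, the shared partner of most α subunits, is at 365, 364 and 320.5 CPM in 1CT and 316, 355 and 352 CPM in 1CT-A. Its libraries overlap between the lines, and its log2 fold change is -0.07 ± 0.07 (SE of the fit, adjusted p = 0.413 by edgeR). ITGB3 and ITGB5 both pair with αV in receptors for vitronectin. ITGB3 is at 2.25, 4.47 and 2.57 CPM in 1CT and 9.95, 10.5 and 9.84 CPM in 1CT-A, so that the lowest 1CT-A library is above the highest 1CT library. It rises 3.17-fold, a log2 fold change of 1.66 ± 0.22 (SE of the fit, adjusted p = 4.29e-05 by edgeR). In GENCODE release 44, ITGB3 shares 2266 exon bases on the same strand with a protein-coding gene that has no symbol, and reads could have been divided between them. ITGB5 is at 396, 459.5 and 428 CPM in 1CT and 280.4, 279 and 269.7 CPM in 1CT-A, without overlap. It falls 1.59-fold, with a log2 fold change of -0.67 ± 0.07 (SE of the fit, adjusted p = 5.65e-06 by edgeR). ITGAV, the gene of their shared α partner, falls from a mean of 32.8 CPM ± 2.33 (n = 3, SD) among 1CT libraries to 24.4 CPM ± 3.26 (n = 3, SD) among 1CT-A libraries, which on the log2 scale is a change of -0.47 (adjusted p = 0.00333 by edgeR).

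The remaining β subunits have few counts or none. ITGB8, another partner of αV that takes part in the activation of TGF-β, has 17, 14 and 8 counts in 1CT and 2, 5 and 0 counts in 1CT-A. The log2 fold change of ITGB8 is -2.95 ± 0.64 (SE of the fit, adjusted p = 0.00147 by edgeR). ITGB2, the β subunit of leukocyte integrins, has 28, 19 and 21 counts in 1CT and 3, 11 and 5 counts in 1CT-A, and its log2 fold change is -2.37 ± 0.42 (SE of the fit, adjusted p = 0.000355 by edgeR). Both genes are low in each library of 1CT-A, and for both the reads are so few that the size of the fall is uncertain (-4.06 to -2.34 for ITGB8 and -3.14 to -2.07 for ITGB2 on the log2 scale when libraries are left out). Of the 6 leukocyte markers, PTPRC and CD3E have no count in any library and LCP1 has at most 3. CD68 has 85 to 121 counts and CORO1A 5 to 10. CD14 has 6, 12 and 13 counts in 1CT and 4, 4 and 6 counts in 1CT-A. ITGB4, the subunit of the α6β4 receptor of hemidesmosomes, has at most 7 counts in a library and ITGB7, a leukocyte subunit, at most 2. ITGB6, an epithelial partner of αV, has no count in any of the 6 libraries.

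The α subunits go in both directions. ITGA4 and ITGA1 rise, ITGA6, ITGA7, ITGA5 and ITGAV fall, and ITGA2, ITGA3, ITGA8 and ITGA10 do not pass the test. ITGA4, whose protein pairs with β1 to bind fibronectin and the cell surface protein VCAM1, is at 34.9, 32.2 and 23.8 CPM in 1CT and 57.8, 61.0 and 56.3 CPM in 1CT-A. Every 1CT-A library is above every 1CT library, a 1.87-fold rise with a log2 fold change of 0.90 ± 0.12 (SE of the fit, adjusted p = 3.05e-05 by edgeR). CERKL, a gene on the opposite strand, has 2813 exon bases in common with ITGA4 in GENCODE release 44. CERKL has 259, 235 and 163 counts in 1CT and 563, 585 and 628 counts in 1CT-A, which is 84.2% to 88.6% of the ITGA4 counts in every library, and its log2 fold change is 0.88. The strand setting of the counting is not given in the sources used here, so reads of ITGA4 and CERKL cannot be told apart. ITGA1, the α subunit of a collagen receptor, is at 9.23, 18.0 and 8.99 CPM in 1CT and 21.0, 21.5 and 24.8 CPM in 1CT-A. The rise of 1.81-fold has a log2 fold change of 0.86 ± 0.21 (SE of the fit, adjusted p = 0.00392 by edgeR). Replicate 2 of 1CT lies apart from the other 1CT libraries and near the 1CT-A level. PELO, which shares 499 exon bases with ITGA1 on the same strand, has 218% to 513% of its counts, and reads could have been divided between them. Without 1CT replicate 2 the log2 fold change is 1.26.

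ITGA6 and ITGA7 belong to the laminin receptors. ITGA6 is at 62.7, 64.1 and 43.1 CPM in 1CT and 38.3, 35.5 and 38.0 CPM in 1CT-A, and falls 1.56-fold, with a log2 fold change of -0.64 ± 0.13 (SE of the fit, adjusted p = 0.000889 by edgeR). Replicate 3 of 1CT is the lowest of its line, near the 1CT-A libraries but above them. ITGA7, which is best known from muscle, is at 9.23, 10.9 and 6.42 CPM in 1CT and 2.78, 3.95 and 4.05 CPM in 1CT-A, without overlap, with a log2 fold change of -1.33 ± 0.23 (SE of the fit, adjusted p = 0.000312 by edgeR). BLOC1S1, which shares 119 exon bases with ITGA7 on the opposite strand, has 479% to 1370% of its counts. Reads of either gene could have been counted for the other or for both, so part of the ITGA7 counts may be BLOC1S1 reads. ITGA3, the third of the group, is at a mean of 9.70 CPM ± 1.38 (n = 3, SD) in 1CT and of 7.89 CPM ± 0.690 (n = 3, SD) in 1CT-A. It does not pass the test although the libraries do not overlap, with a log2 fold change of -0.33 (adjusted p = 0.105 by edgeR). ITGA5, whose protein with β1 is the main fibronectin receptor, falls from a mean of 98.3 CPM ± 8.31 (n = 3, SD) among 1CT libraries to 83.0 CPM ± 4.08 (n = 3, SD) among 1CT-A libraries, which on the log2 scale is a change of -0.28 (adjusted p = 0.0154 by edgeR). The call is lost without 1CT-A replicate 2 (-0.23). The collagen receptor subunits ITGA2 and ITGA10 have log2 fold changes of -0.09 (adjusted p = 0.519 by edgeR) and -0.29 (adjusted p = 0.341 by edgeR), and their libraries overlap.

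**Figure D2:**
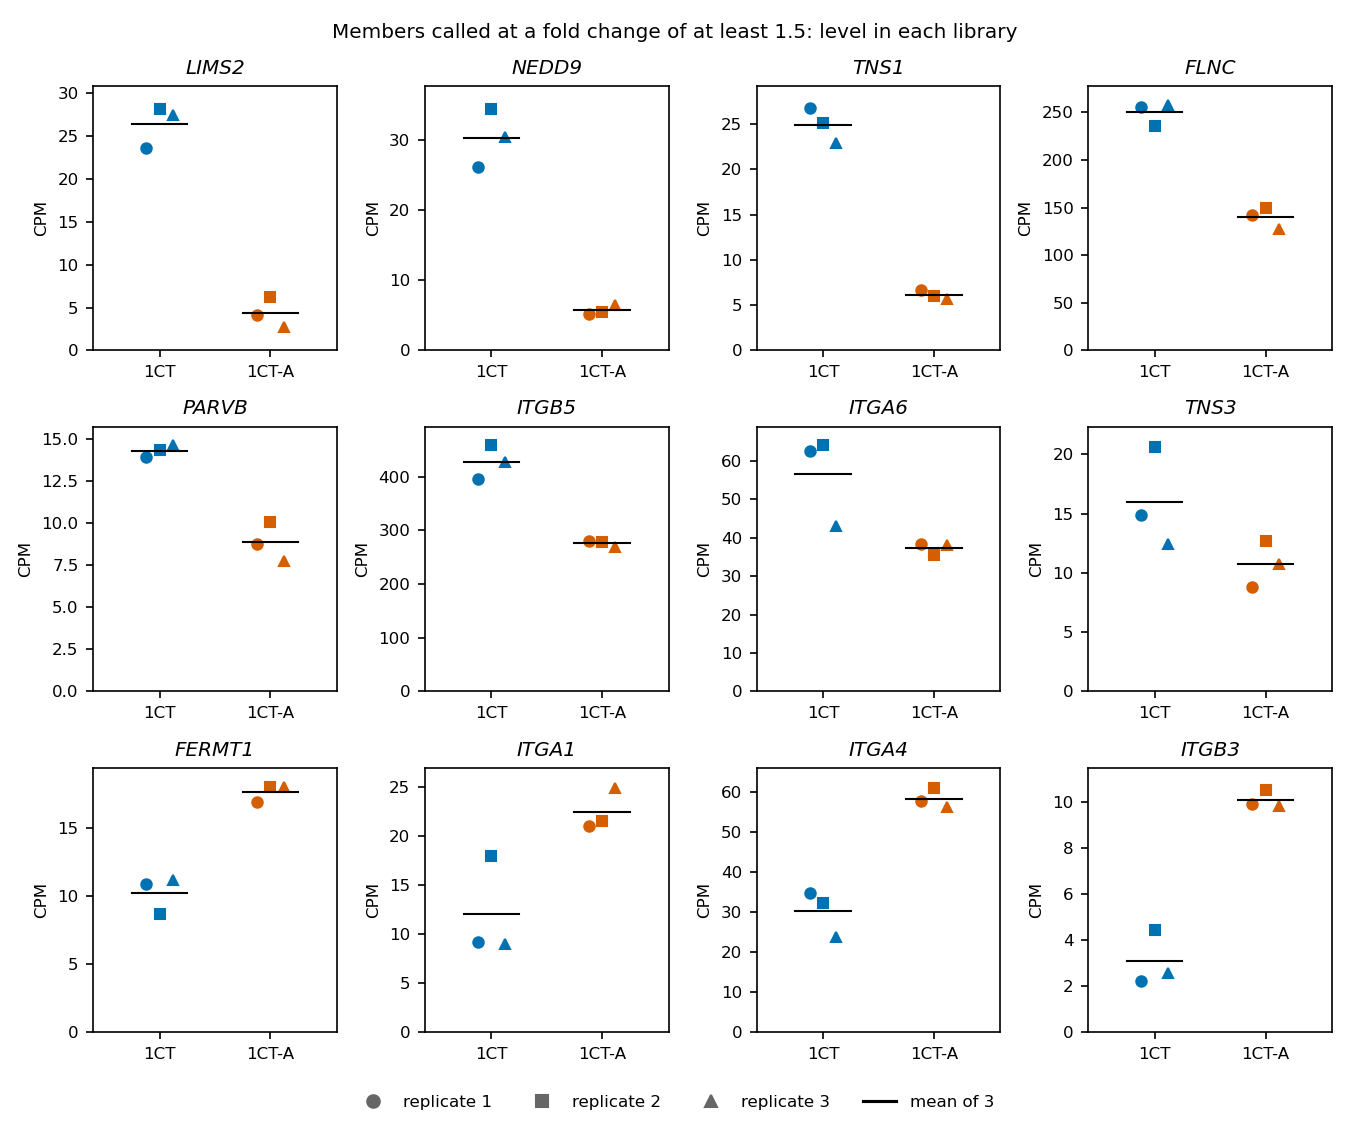
CPM in each library for the 12 genes with an adjusted p under 0.05, a fold change of at least 1.5 and a mean of at least 10 CPM in a cell line, ordered by fold change, with a bar at the mean of 3 libraries and marker shape for the replicate number. TNS3 is the gene whose libraries overlap between the lines, and the replicate 2 library of 1CT stands apart for ITGA1.

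ITGA8 and ITGA11, which are known from smooth muscle and mesenchymal cells, differ widely between the libraries of a line. ITGA8 has 4, 57 and 15 counts in 1CT and 1, 25 and 7 counts in 1CT-A, with the highest count of each line in replicate 2. Its log2 fold change is -1.74 ± 0.81 (SE of the fit, adjusted p = 0.0862 by edgeR). ITGA11 has 0, 15 and 3 counts in 1CT and 1, 6 and 3 counts in 1CT-A, again with replicate 2 highest, and could not be tested. Among smooth muscle genes outside the members, ACTA2 and CNN1, chosen after their values were seen, are also highest in replicate 2 of both lines. TAGLN and CALD1 are highest in replicate 2 in 1CT but not in 1CT-A, and MYL9 in neither line. ACTA2, smooth muscle actin, is at 29.9, 71.6 and 47.5 CPM in 1CT and 16.0, 28.6 and 16.8 CPM in 1CT-A, and CNN1, calponin of smooth muscle, is at 1.77, 8.93 and 3.08 CPM in 1CT and 3.58, 6.14 and 2.86 CPM in 1CT-A. Without 1CT-A replicate 2, the log2 fold change of ITGA8 is -3.19 (by edgeR, adjusted p = 0.0229). ITGA8 also passes without 1CT replicate 1 (-2.26) or 1CT replicate 3 (-1.97). Without 1CT replicate 2 it is at -0.36 and does not pass, and with replicate 2 of both lines left out it can no longer be tested. The part of these libraries in the values of the other genes was not tested beyond leaving them out. In bulk samples, fewer cells that express a gene and less RNA per cell cannot be told apart.

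**Figure D3:**
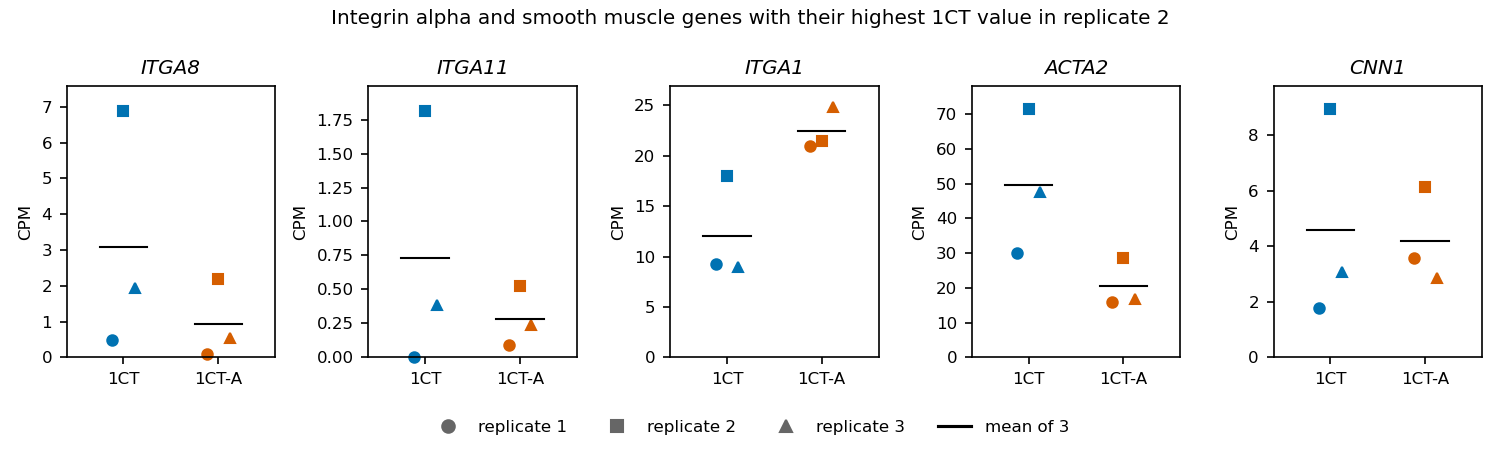
CPM in each library for ITGA8, ITGA11 and ITGA1 and for the smooth muscle genes ACTA2 and CNN1, with a bar at the mean of 3 libraries. Replicate 2 is the highest 1CT library in each panel, and it is the highest 1CT-A library for all but ITGA1.

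Talin and kindlin genes do not move together, with TLN2 and FERMT1 higher and TLN1 lower. TLN1, the talin present in most cells, is at 83.6, 97.0 and 102 CPM in 1CT and 87.1, 66.1 and 81.5 CPM in 1CT-A. The lines overlap, and the log2 fold change is -0.30 ± 0.11 (SE of the fit, adjusted p = 0.0351 by edgeR), a call that is lost with library size scaling (-0.27) and without 1CT replicate 2 (-0.28), 1CT replicate 3 (-0.23), 1CT-A replicate 2 (-0.19), 1CT-A replicate 3 (-0.33) or both replicates 2 (-0.16). TLN2, its close relative, is at 32.8, 39.8 and 41.3 CPM in 1CT and 55.1, 45.3 and 46.2 CPM in 1CT-A, above 1CT in every 1CT-A library. Its log2 fold change is 0.33 ± 0.11 (SE of the fit, adjusted p = 0.029 by edgeR), and it no longer passes without 1CT replicate 1 (0.23) or without 1CT-A replicate 1 (0.23). FERMT2, the kindlin of mesenchymal cells, is at 185, 189.7 and 163 CPM in 1CT and 167, 183 and 182 CPM in 1CT-A, with a log2 fold change of -0.05 ± 0.08 (SE of the fit, adjusted p = 0.602 by edgeR). FERMT1, the kindlin of epithelial cells, is at 10.9, 8.69 and 11.2 CPM in 1CT and 16.9, 18.0 and 18.0 CPM in 1CT-A. It rises 1.68-fold without overlap, a log2 fold change of 0.75 ± 0.14 (SE of the fit, adjusted p = 0.000524 by edgeR).

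In the complex of integrin linked kinase, PINCH and parvin, the kinase gene does not pass the test and the 4 genes of its partners fall. ILK is at 65.4, 65.6 and 66.9 CPM in 1CT and 65.0, 57.5 and 65.0 CPM in 1CT-A, with a log2 fold change of -0.12 ± 0.08 (SE of the fit, adjusted p = 0.264 by edgeR). Like ITGA4, ILK shares 2374 exon bases with a gene on the opposite strand, TAF10, which has 85.2% to 96.8% of the ILK counts in each library, so the reads of these genes cannot be told apart. LIMS2, the gene of the second PINCH protein, is at 23.7, 28.1 and 27.5 CPM in 1CT and 4.12, 6.23 and 2.78 CPM in 1CT-A. This is a fall of 6.23-fold with a log2 fold change of -2.64 ± 0.21 (SE of the fit, adjusted p = 4.31e-07 by edgeR), and of -2.97 to -2.38 when libraries are left out. LIMS1, the PINCH gene that most cells use, is at 193, 189 and 229 CPM in 1CT and 193, 166 and 149.7 CPM in 1CT-A. It has overlapping libraries and a log2 fold change of -0.30 ± 0.10 (SE of the fit, adjusted p = 0.027 by edgeR), a call that is lost without 1CT replicate 3 (-0.20), 1CT-A replicate 2 (-0.28), 1CT-A replicate 3 (-0.21) or both replicates 2 (-0.33). Its near copy LIMS3 has 66 to 121 counts in a library, and reads could have been divided between them. PARVB, β-parvin, is at 13.96, 14.4 and 14.6 CPM in 1CT and 8.78, 10.1 and 7.78 CPM in 1CT-A, a log2 fold change of -0.73 ± 0.14 (SE of the fit, adjusted p = 0.000818 by edgeR). PARVA, α-parvin, falls from a mean of 60.4 CPM ± 6.28 (n = 3, SD) among 1CT libraries to 45.8 CPM ± 2.65 (n = 3, SD) among 1CT-A libraries, which on the log2 scale is a change of -0.44 (adjusted p = 0.0015 by edgeR).

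Of the kinases and scaffolds, NEDD9 falls most. NEDD9, a scaffold of the p130Cas family that focal adhesion kinase and SRC phosphorylate, is at 26.1, 34.4 and 30.4 CPM in 1CT and 5.20, 5.44 and 6.51 CPM in 1CT-A. It falls 5.42-fold, a log2 fold change of -2.44 ± 0.15 (SE of the fit, adjusted p = 3.74e-08 by edgeR), and each 1CT-A library lies far below the lowest 1CT library. BCAR1, the gene of p130Cas itself, is at 111, 114 and 119 CPM in 1CT and 105, 111 and 93.0 CPM in 1CT-A, with a log2 fold change of -0.19 ± 0.08 (SE of the fit, adjusted p = 0.0664 by edgeR). PTK2, the gene of focal adhesion kinase, is at 65.5, 63.3 and 51.6 CPM in 1CT and 49.6, 44.6 and 45.5 CPM in 1CT-A. It falls 1.33-fold, a log2 fold change of -0.41 ± 0.10 (SE of the fit, adjusted p = 0.0037 by edgeR), and the lowest 1CT library is close to the highest 1CT-A library. SRC is at 9.70, 11.2 and 11.3 CPM in 1CT and 10.8, 9.13 and 11.5 CPM in 1CT-A, with overlapping libraries and a log2 fold change of -0.07 ± 0.15 (SE of the fit, adjusted p = 0.72 by edgeR). PXN, the gene of the scaffold paxillin, falls 1.48-fold from a mean of 529 CPM ± 15.7 (n = 3, SD) among 1CT libraries to 367 CPM ± 13.7 (n = 3, SD) among 1CT-A libraries, which on the log2 scale is a change of -0.56 (adjusted p = 7.84e-06 by edgeR). It shares 1769 exon bases with PXN-AS1 on the opposite strand, and reads of either gene could have been counted for the other or for both.

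Of the 10 genes that link adhesions to actin, 7 fall and none rises. TNS1, a tensin that binds both the β tail and actin, is at 26.7, 25.1 and 22.9 CPM in 1CT and 6.63, 5.97 and 5.63 CPM in 1CT-A. It falls 4.21-fold, a log2 fold change of -2.07 ± 0.13 (SE of the fit, adjusted p = 6.85e-08 by edgeR). TNS3, another tensin, is at 14.9, 20.6 and 12.5 CPM in 1CT and 8.78, 12.7 and 10.7 CPM in 1CT-A, and its log2 fold change is -0.61 ± 0.19 (SE of the fit, adjusted p = 0.0143 by edgeR). The lines overlap for TNS3, and the call is lost without 1CT replicate 2 (-0.39), without 1CT-A replicate 1 (-0.49) and without both replicates 2 (-0.51). FLNC, the filamin best known from muscle, is at 256, 236 and 258 CPM in 1CT and 143, 149 and 127 CPM in 1CT-A. It falls 1.84-fold, a log2 fold change of -0.88 ± 0.08 (SE of the fit, adjusted p = 1.37e-06 by edgeR). FLNA, the common filamin, falls 1.14-fold, with a log2 fold change of -0.19 ± 0.06 (SE of the fit, adjusted p = 0.0242 by edgeR) and a call that is lost without 1CT replicate 2 (-0.17), 1CT-A replicate 2 (-0.18), 1CT-A replicate 3 (-0.17) or both replicates 2 (-0.16), and with library size scaling or no filter. VCL (vinculin), ZYX (zyxin, a LIM domain protein of adhesions under tension) and ACTN4 (an α-actinin) have log2 fold changes of -0.32, -0.33 and -0.32, with adjusted p values of 0.0074, 0.00872 and 0.00245. Without 1CT-A replicate 2 ZYX is at -0.28 and no longer passes. VCL shares 1109 exon bases with AP3M1 on the opposite strand, which has 9.83% to 14.8% of its counts. ACTN4 shares 868 exon bases with CAPN12 on the opposite strand, which has 90.9% to 93.1% of its counts in each library, so their reads cannot be told apart. ACTN1, VASP and TES do not pass the test, with log2 fold changes of -0.11, 0.01 and 0.19. TES is called higher with library size scaling (0.23) and with no filter (0.24).

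Promoter sequences are shown for some of the actin linker genes, because promoters of this class are known to be read by the factors SRF and TEAD. In the RefSeq table of promoters (GRCh38.p14), 36 of the 46 genes are found, with 69 windows, since a gene may have several starts. Counts from the 3′ end do not tell which start is used. The submitters' processing notes name hg19, so the positions describe the RefSeq table and not the counting. In the 250 bases before each start, 4 motifs were searched on both strands. The CArG box of SRF is found in 4 of the 69 windows (5.80%) and in 1.16% of the 35116 windows of all genes. GGAATG, the core motif of TEAD factors, is found in 10 windows (14.5%, against 11.9%), TGANTCA, the motif of AP-1, in 3 (4.35%, against 6.57%), and CTTTGAT, the motif of TCF/LEF factors, in 0 (against 2.26%). The windows with a CArG box belong to FLNA, ACTN1, TES and ITGB6. Of these genes, ITGB6 has no count, ACTN1 and TES are not called, and the call of FLNA is lost in several alternatives. The LIMS2 and NEDD9 windows hold none of the 4 motifs. VCL, with a TEAD motif, and ACTN4, with an AP-1 motif, also have a match and are not printed. The matching windows of FLNA, FLNC, ACTN1, TES and TNS1 are given 5′ to 3′ toward the start, and capitals mark the matches. They are 1 of 4 windows for ACTN1, 1 of 2 for TES and 2 of 5 for TNS1. In FLNA the capitals are the CArG box, and in FLNC and TNS1 they are the TEAD motif (CATTCC on the other strand). The ACTN1 window holds the CArG box and then the TEAD motif. In TES the CArG box at the left end overlaps a TEAD motif, and another TEAD motif follows. A match is a description of the letters and not of a bound site.
FLNA (chrX:154374635-154374884, minus strand): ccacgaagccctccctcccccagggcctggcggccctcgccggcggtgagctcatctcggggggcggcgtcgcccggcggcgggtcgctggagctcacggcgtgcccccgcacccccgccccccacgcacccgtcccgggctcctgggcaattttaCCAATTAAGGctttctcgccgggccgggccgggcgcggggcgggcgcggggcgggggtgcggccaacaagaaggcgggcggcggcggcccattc
FLNC (chr7:128830156-128830405, plus strand): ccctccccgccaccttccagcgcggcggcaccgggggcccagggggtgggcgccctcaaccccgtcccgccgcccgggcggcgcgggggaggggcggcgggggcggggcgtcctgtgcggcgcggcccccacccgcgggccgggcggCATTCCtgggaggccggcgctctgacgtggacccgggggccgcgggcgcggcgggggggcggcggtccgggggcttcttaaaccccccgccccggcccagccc
ACTN1 (chr14:68977567-68977816, minus strand): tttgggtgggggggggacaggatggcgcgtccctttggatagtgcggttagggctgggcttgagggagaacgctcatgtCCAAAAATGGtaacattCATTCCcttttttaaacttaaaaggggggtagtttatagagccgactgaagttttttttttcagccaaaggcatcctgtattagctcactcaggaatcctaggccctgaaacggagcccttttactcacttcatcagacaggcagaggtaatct
TES (chr7:116222703-116222952, plus strand): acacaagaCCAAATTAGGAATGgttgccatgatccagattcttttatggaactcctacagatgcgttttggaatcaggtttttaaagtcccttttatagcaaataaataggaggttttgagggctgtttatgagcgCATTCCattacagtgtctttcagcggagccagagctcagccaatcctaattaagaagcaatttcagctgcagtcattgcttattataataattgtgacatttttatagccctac
TNS1 (chr2:217944071-217944320, minus strand): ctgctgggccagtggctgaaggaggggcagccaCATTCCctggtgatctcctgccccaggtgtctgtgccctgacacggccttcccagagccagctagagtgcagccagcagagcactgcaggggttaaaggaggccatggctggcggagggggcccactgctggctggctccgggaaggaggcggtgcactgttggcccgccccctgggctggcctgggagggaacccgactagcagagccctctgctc
TNS1 (chr2:217920237-217920486, minus strand): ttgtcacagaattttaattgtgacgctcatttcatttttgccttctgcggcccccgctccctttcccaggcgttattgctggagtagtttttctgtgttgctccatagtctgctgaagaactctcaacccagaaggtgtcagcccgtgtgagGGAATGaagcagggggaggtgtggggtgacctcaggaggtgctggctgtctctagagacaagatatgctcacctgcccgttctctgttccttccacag

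The caveolin genes go apart. CAV1, which forms the caveolae of the membrane, rises from a mean of 1760.4 CPM ± 99.6 (n = 3, SD) among 1CT libraries to 2141 CPM ± 25.1 (n = 3, SD) among 1CT-A libraries, which on the log2 scale is a change of 0.24 ± 0.06 (SE of the fit, adjusted p = 0.00438 by edgeR). CAV2, its partner in the same coat, falls from a mean of 203 CPM ± 17.3 (n = 3, SD) among 1CT libraries to 168 CPM ± 9.35 (n = 3, SD) among 1CT-A libraries, which on the log2 scale is a change of -0.31 ± 0.08 (SE of the fit, adjusted p = 0.00518 by edgeR). Both differences are small, and neither gene has overlapping libraries.

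Ratios of related genes within a library show which of a pair loses or gains against the other, without comparing the levels of different genes. They are given as log2 of (CPM + 1) of a gene over (CPM + 1) of the other. Of the 10 pairs compared, all 10 have ratios that do not overlap between the lines (exact two-sided permutation test, p = 0.1 for each, the smallest possible, and 0.1 after Benjamini-Hochberg adjustment over the pairs). Among single genes, 59.7% of those tested do not overlap, and the share for other pairs of genes was not computed. For PARVA to PARVB the nearest libraries are at 2.16 in 1CT and 2.17 in 1CT-A. The ratio of LIMS1 to LIMS2 is 2.90 ± 0.17 (SD, n = 3) in 1CT and 5.03 ± 0.44 (SD, n = 3) in 1CT-A, a difference of 2.13 ± 0.27 (SE). That of BCAR1 to NEDD9 is 1.89 ± 0.18 (SD, n = 3) in 1CT and 3.95 ± 0.27 (SD, n = 3) in 1CT-A, a difference of 2.06 ± 0.18 (SE). LIMS2 falls more than LIMS1, and NEDD9 falls while BCAR1 does not pass the test. LIMS2, NEDD9 and TNS1 have the largest falls of the members at 10 CPM or more. That their partners fall less follows from this. TNS1 loses against TNS3, with -1.35 ± 0.26 (SE). FLNA gains against FLNC with a difference of 0.69 ± 0.09 (SE), FERMT1 against FERMT2 with 0.75 ± 0.16 (SE), and CAV1 against CAV2 with 0.55 ± 0.07 (SE). TLN1 loses against TLN2, with -0.63 ± 0.08 (SE). The differences of PARVA to PARVB, 0.25 ± 0.10 (SE), and of ACTN1 to ACTN4, 0.21 ± 0.08 (SE), are the smallest. For ITGA6 to ITGB4 the difference of -0.68 ± 0.21 (SE) comes from ITGA6, since ITGB4 stays between 1 and 7 counts.

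**Figure D4:**
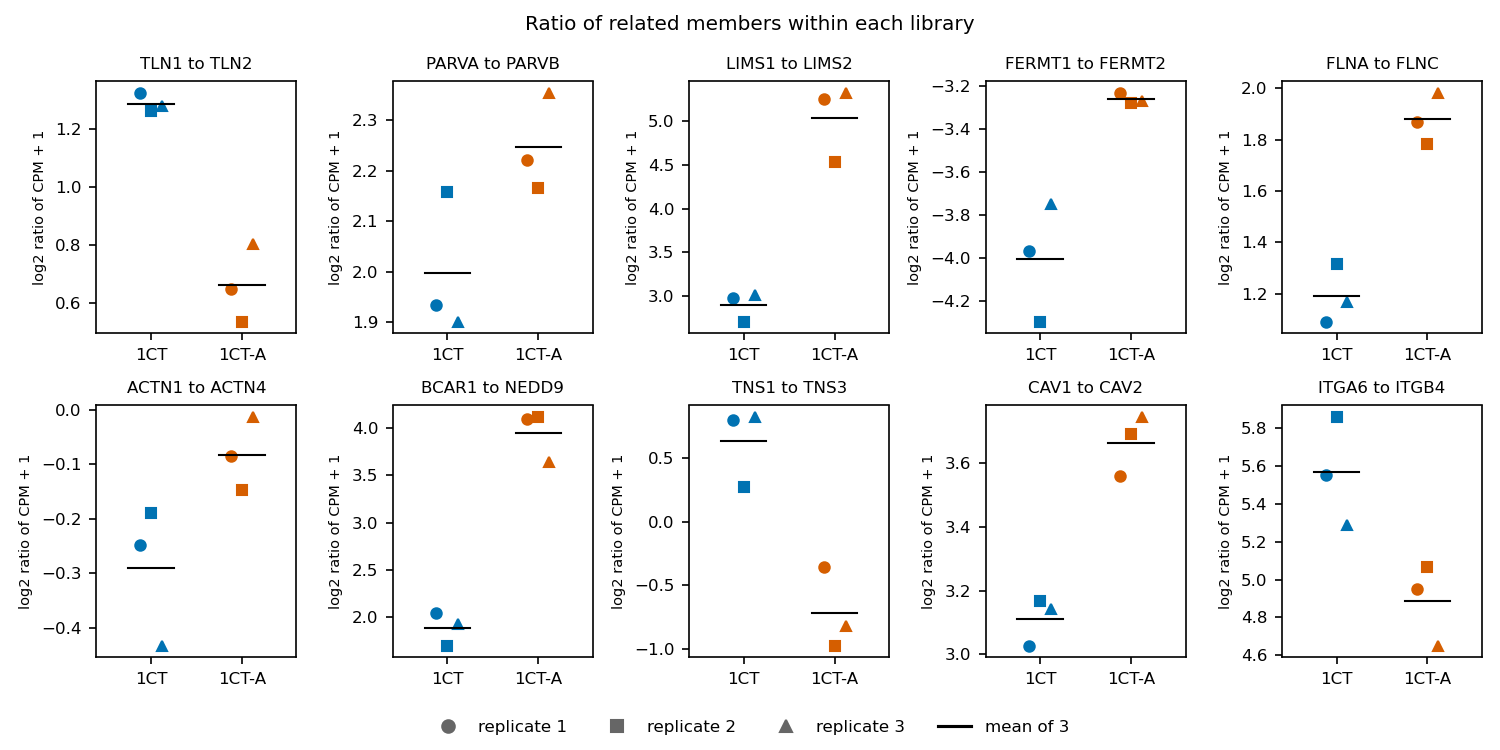
Log2 ratio of CPM + 1 for 10 pairs of related genes in each library, with a bar at the mean of 3 libraries and marker shape for the replicate number (each panel has its own axis). The lines do not overlap in any panel, with the differences of LIMS1 to LIMS2 (2.13) and BCAR1 to NEDD9 (2.06) the largest.

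Other genes of the adhesion machinery, listed by function, are called lower more often than higher in each list, to be read against the 26% lower and 25% higher of all tested genes. These lists too were chosen with earlier results of these data known. Of 26 tested genes of further focal adhesion and LIM domain proteins, 14 are lower and 1 is higher (median log2 fold change -0.39). FBLIM1, the filamin binding protein migfilin, falls 5.82-fold to 3.12 ± 0.676 CPM (SD, n = 3), and its change on the log2 scale is -2.54 (adjusted p = 1.25e-07 by edgeR). CSRP1, a LIM domain protein on actin, has a log2 fold change of -0.91 (adjusted p = 1.92e-06 by edgeR). NEXN, an actin binding protein, is the higher one with 0.27 (adjusted p = 0.0117 by edgeR). Of 33 tested adhesion signalling genes, 10 are lower and 3 higher (median -0.09), and the lower ones are near the share of all tested genes. SHC1, an adaptor of growth factor and integrin signals, and FYN, a kinase of the SRC family, have log2 fold changes of -0.88 and -0.81, while PAK1, NCK1 and CRKL rise with 0.67, 0.49 and 0.40.

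Of 26 actomyosin genes, 15 are lower and 3 higher (median -0.25). TPM1, a tropomyosin that lies along actin filaments, falls 2.93-fold with a log2 fold change of -1.55 (adjusted p = 3.37e-08 by edgeR), and ANXA2, which binds actin and membranes, falls 1.87-fold. MYH10, a non-muscle myosin heavy chain, rises 1.70-fold, and CNN3 and RDX rise 1.45- and 1.33-fold. Of 12 integrin partners in the membrane, 6 are lower and 1 is higher (median -0.18). The tetraspanins CD82, CD81 and CD151 have log2 fold changes of -1.28, -0.62 and -0.47, and the syndecan SDC1 rises with 0.54. Of 6 tested hemidesmosome genes 4 are lower and 1 is higher (median -0.92), and the plakins DST and PLEC fall 2.58- and 2.22-fold. COL17A1 of the same list has at most 3 counts in a library and could not be tested, like ITGB4 with at most 7. CD151 is counted both in this list and among the membrane partners. The integrin genes outside the 46 hold ITGAE, which is at -0.06 (adjusted p = 0.721 by edgeR), and ITGBL1, a secreted protein with β subunit repeats, which falls 4.85-fold from a mean of 73.5 CPM ± 5.55 (n = 3, SD) among 1CT libraries to 15.6 CPM ± 1.36 (n = 3, SD) among 1CT-A libraries. ITGA2B, ITGAD, ITGAL, ITGAM and ITGAX have at most 3 counts in a library.

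**Figure D5:**
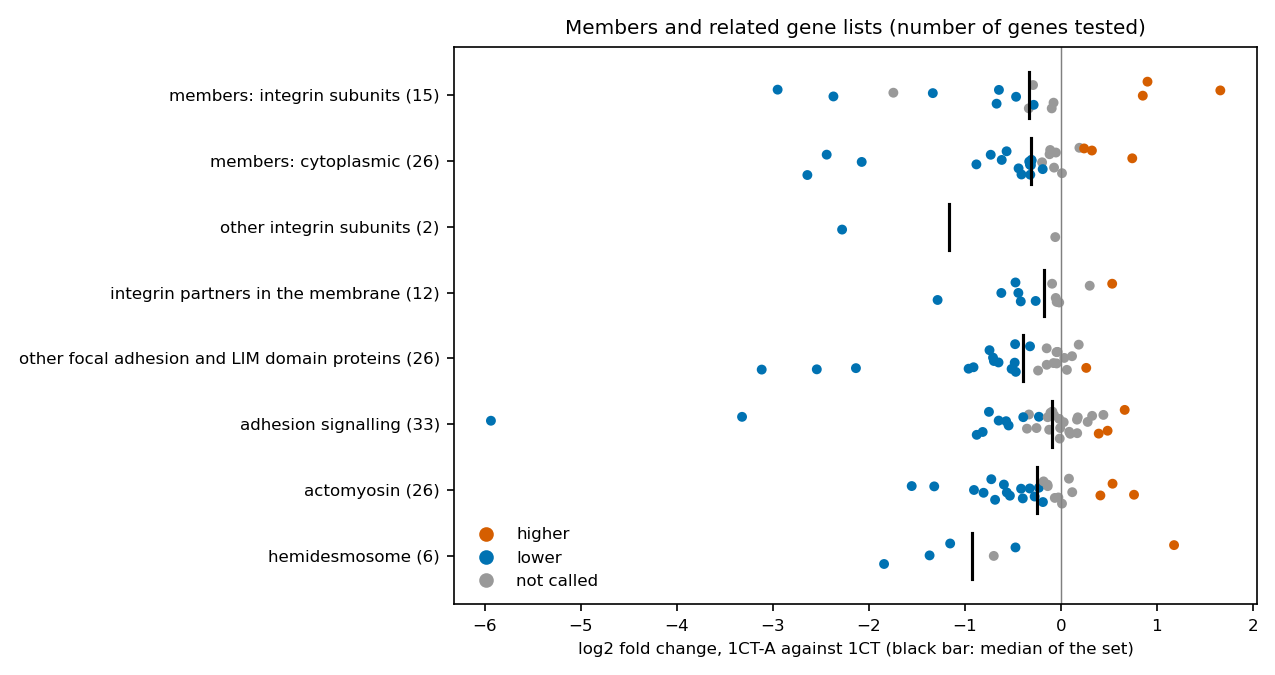
Log2 fold change between the lines (1CT-A over 1CT) for the tested genes of each list, with the number of genes in brackets, colour for the call at an adjusted p under 0.05 and a black bar at the median. The medians of the integrin subunits (-0.33) and of the cytoplasmic genes (-0.31) lie left of 0, and the adhesion signalling genes have theirs nearest to 0 (-0.09).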

How the data were processed

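RNA was measured in 3 libraries of 1CT and 3 of 1CT-A cells (Trizol extraction, QuantSeq 3′ libraries from 500 ng of RNA, NextSeq 500, per the labels). The paper's methods name another RNA kit and a microarray, and the labels are followed here because the files hold whole counts. The authors deposited raw counts per gene symbol. The submitters' processing notes name Bowtie2, edgeR and hg19, with no roles. The annotation, the strand setting and any filter are not given in the sources used here.

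Counts of repeated symbols were added together. Genes were kept by edgeR's filterByExpr (minimum count 10), scaled by TMM and tested with edgeR's quasi-likelihood test (edgeR 4.0.16, R 4.3.3) on all 6 libraries, with Benjamini-Hochberg adjustment over the 12514 genes tested. CPM values use the total of each library. Ratios used a pseudocount of 1 CPM. The procedure was tested on simulated data. Alternatives were other scaling factors, filters and thresholds, DESeq2 1.42.0, limma-voom (limma 3.58.1), a replicate block, other pseudocounts and libraries left out. No 2 libraries were copies of each other.

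The 46 genes and the lists were chosen with earlier results of these data known. Every library's value is given for genes that reach a mean of 10 CPM in a line, with an adjusted p under 0.05 and a fold change of at least 1.5, and for ITGB1, TLN1, FERMT2, ILK, PTK2 and SRC. Of each other list, up to 3 rises and 3 falls at 10 CPM or more are named. Some genes that this rule would name are not reported here. Further genes named with their values, such as those with few counts and the partners in ratios, were chosen after their values were seen. Exon overlaps come from GENCODE release 44, and promoters from RefSeq. Of the 46 genes, 26 share exon bases with a gene on the opposite strand, and only some of these overlaps are named.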

Additional observations from a re-analysis of the deposited data

How the results depend on the processing

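The count of lower genes (23) runs from 15 to 24 and that of higher genes (6) from 5 to 6 when libraries are left out. The 15 comes from the fit without replicate 2 of both lines, added after the data were seen, in which all 21 calls are among the 29. DESeq2 and limma-voom give 23 lower and 6 higher, library size scaling gives 21 and 7, and an adjusted p threshold of 0.01 gives 18 and 5. Same-numbered libraries have correlations of -0.161, 0.22 and -0.139, taken on deviations from the mean of each line. Replicate 2 of 1CT correlates best with its own number, and replicates 1 and 3 of 1CT do not. With 3 libraries in a line such correlations are tied together, so they cannot decide whether the numbers pair the libraries. With a replicate block, 23 are lower, 6 higher and 8 past a fold of 2, with FLNA lost (adjusted p = 0.0599, edgeR) and ITGA8 gained (adjusted p = 0.00133, edgeR). With a pseudocount of 5 CPM the ratio differences are 0.12 for PARVA to PARVB, 1.498 for LIMS1 to LIMS2, 1.57 for BCAR1 to NEDD9 and -1.03 for TNS1 to TNS3, since a larger pseudocount shrinks ratios of low genes. VASP and SRC, which do not pass the test, turn in sign. The log2 fold change of VASP is -0.0029 with 10 counts asked of every library, and it runs from -0.0027 (without 1CT-A replicate 2) to 0.038 as libraries are left out. That of SRC runs from -0.14 to 0.067 (without both replicates 2), with 0.029 without 1CT-A replicate 2. Depth limits ITGB2, ITGB8, ITGA8 and the untested genes.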

Other observations

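Further adhesion genes with fewer counts, chosen after their values were seen, differ between the lines, and most of those named are lower in 1CT-A. PTK2B, the kinase related to focal adhesion kinase, has 87, 74 and 79 counts in 1CT and 6, 17 and 12 in 1CT-A. APBB1IP, which joins the GTPase Rap to talin, has 24, 20 and 16 counts in 1CT and 0, 0 and 1 in 1CT-A. SVIL, the actin binding protein supervillin, has 91, 78 and 75 counts in 1CT and 15, 11 and 15 in 1CT-A. LPXN, a relative of paxillin, has 90, 66 and 72 counts in 1CT and 26, 25 and 25 in 1CT-A. LAMA3, a laminin chain of the hemidesmosome list, goes the other way, with 12, 6 and 4 counts in 1CT and 16, 30 and 28 in 1CT-A.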
